A study of Mus musculus with 9 samples.

Results

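Lumbar dorsal root ganglia of control mice and of mice with an induced Prdm12 knock-out were studied. The RUNX transcription factors and their ETO family corepressors were followed as 7 genes, Runx1, Runx2, Runx3, Cbfb, Runx1t1, Cbfa2t2 and Cbfa2t3. They were found by matching Ensembl gene identifiers to symbols, which gave 7 of the 55536 genes in the count tables. All 7 passed the filter on low counts that left 17258 genes for testing. Messenger RNA was sequenced in 9 libraries from adult C57Bl6 mice, taken 1 month after tamoxifen, the drug that switches on an inducible recombinase. The icKO group (5 libraries) carried a Prdm12 inducible conditional knock-out and the control group (4 libraries) was labelled wild type. The promoter that drove the recombinase, the part of Prdm12 that was deleted and whether libraries came from separate or pooled animals are not stated in the labels. Every p-value therefore rests on how much these libraries varied, part of which may be technical variation.

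RUNX proteins bind DNA through the Runt domain and gain affinity by pairing with CBFβ, the product of Cbfb, and they turn genes on or off according to the cofactors they recruit. The ETO family (products of Runx1t1, Cbfa2t2 and Cbfa2t3) does not bind DNA by sequence but brings NCoR and histone deacetylase complexes to factors such as E proteins. RUNX1T1 takes its name from a leukaemia in which it is fused to RUNX1. In dorsal root ganglia, Runx1 is known for directing the nonpeptidergic nociceptor fate, Runx3 for the TrkC-expressing proprioceptors, and Runx2 is best known from bone.

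Library totals lay between 19607740 (control 4) and 29481589 counts (icKO 1). Prdm12, a PR domain zinc finger gene of nociceptors, checked the labels. Its level was 128, 129, 116 and 163 CPM (counts scaled to a common library total with TMM factors) in control 1 to 4 and 23.4, 24.2, 24.1, 22.3 and 26.2 CPM in icKO 1 to 5. No control library overlapped an icKO library, and the log2 fold change was -2.48 (SE 0.09, adjusted p = 2.51e-08). This and all other adjusted p-values come from the quasi-likelihood test of edgeR, Benjamini-Hochberg adjusted over all genes tested, unless another tool is named. The 7 sensory neuron markers checked (Tubb3, Prph, Avil, Isl1, Pou4f1, Scn9a and Scn10a) summed to 7574 to 8950 CPM in control and 6999 to 8446 CPM in icKO libraries, and 0 of the 7 passed the test by edgeR, by DESeq2 or at an unadjusted p under 0.05. Control 3 stood apart in 6 bone cell markers (Bglap, Bglap2, Ibsp, Sp7, Dmp1 and Phex). They summed to 37.0 CPM there against at most 8.04 CPM in the other controls and 6.21 to 8.24 CPM in icKO libraries. Control 3 was also highest in some macrophage and myeloid precursor markers. Adgre1 was at 42.0 CPM there and at most 12.9 CPM elsewhere, and Prtn3 at 3.28 CPM and at most 1.36 CPM. Csf1r (23.7 CPM) and S100a8 (4.67 CPM) of the same lists lay within the range of the other libraries. Counts of Y-linked genes split the libraries into 4 high ones (icKO 1 and 2, control 1 and 3) and 5 low ones, with both groups in each class.

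Among the 7 genes, Runx1t1 rose by 1.34-fold in icKO (95% interval 1.21 to 1.49) and none of the other 6 passed the test. The count of 1 of 7 stands beside 0.852% of all 17258 genes that passed the threshold (adjusted p under 0.05), 0.475% higher and 0.377% lower. The groups did not overlap for 2 of the 7, Runx1t1 and Runx2, beside 4.5% of all genes tested. At an unadjusted p under 0.05 there were 4 of 7, with Runx1t1 higher and Runx2, Runx3 and Cbfa2t3 lower, beside 11.1% of all genes (4.85% higher and 6.26% lower). The median log2 fold change of the 7 was -0.0071, and that of all genes tested -0.00076. In whole ganglia, fewer cells of a type and less RNA per cell cannot be told apart in any of these values.

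**Figure D1:**
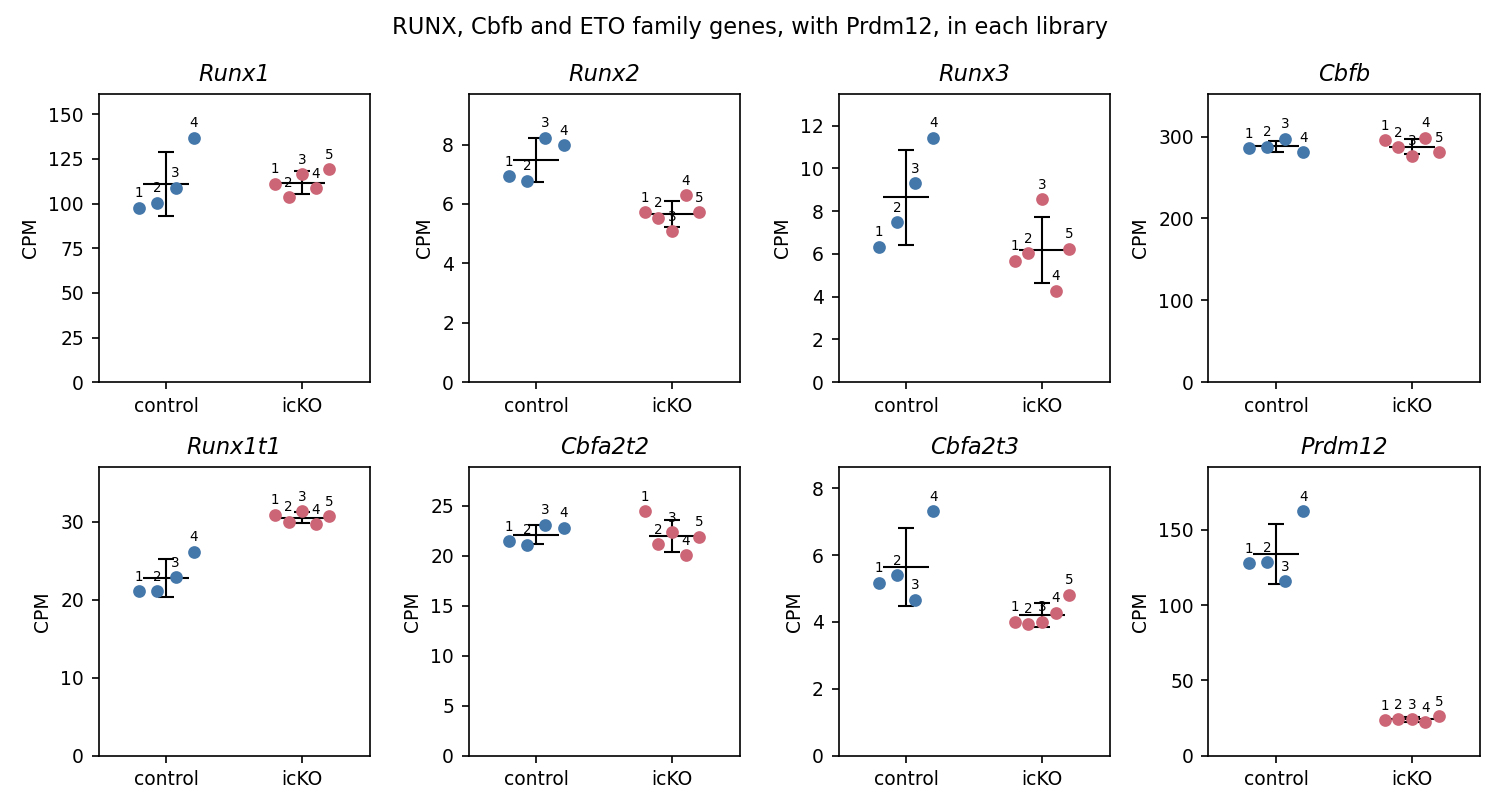
CPM of the 7 genes and of Prdm12 (vertical axes, each starting at 0) in the 4 control and 5 icKO libraries, 1 numbered point per library, with group mean and SD as black lines. The Runx1t1 points of icKO lie between 29.7 and 31.4 CPM, above the highest control at 26.2 CPM, and control 4 is the highest control for Runx1, Runx3, Runx1t1 and Cbfa2t3.

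**Figure D2:**
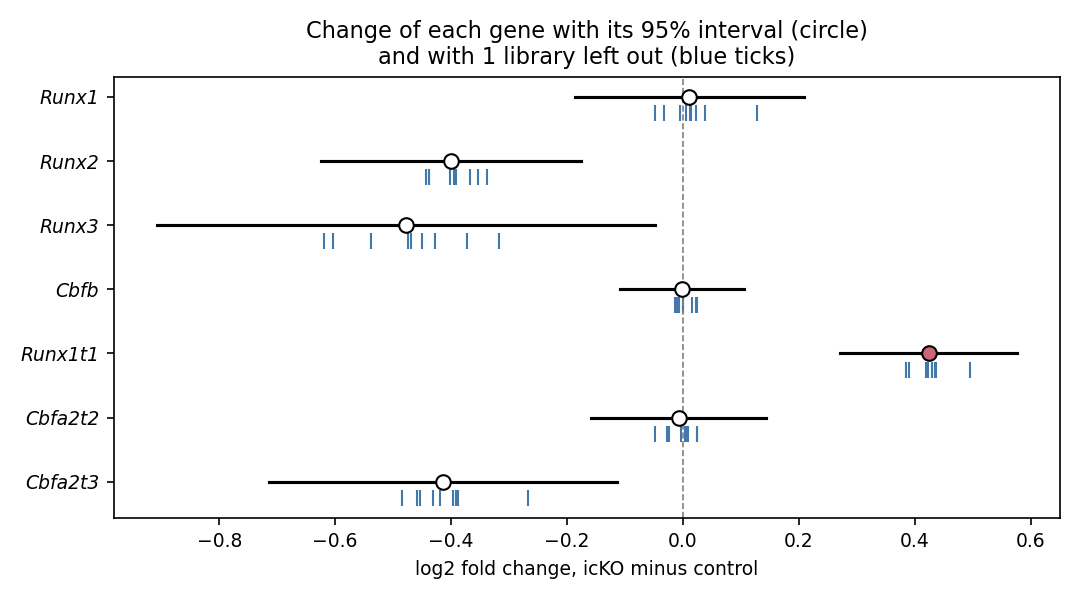
Log2 fold change, icKO minus control (horizontal axis), of the 7 genes with its 95% interval (circle and black line, filled where adjusted p was under 0.05) and the same value with each library left out in turn (blue ticks). Only the Runx1t1 circle is filled, with ticks from 0.39 to 0.50, and the intervals of Runx1, Cbfb and Cbfa2t2 include 0.

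The RUNX genes are close relatives, so reads from their shared stretches bear on how well they can be counted apart. Coding sequences of Runx1 and Runx3 were 76.4% identical, those of Runx2 and Runx3 74.1%, and those of Runx1 and Runx2 73.0%. Identity was counted over aligned bases of the longest coding sequence per gene, with gaps left out. For Runx2 and Runx3 these were 1251 bases, against 1791 coding bases in Runx2. The longest run of identical bases between any 2 of them was 38, shared by Runx1 and Runx3. The most alike coding stretch of 120 bases lies in the Runt domain, where 97 of 120 positions were identical in all 3 genes. It is shown 5′ to 3′ on the gene's strand, from the GENCODE M21 models on GRCm38 (mm10), with capitals for the positions that are not identical in all 3. Each stretch joins 2 coding exons, so its coordinates enclose an intron.
Runx1 (chr16:92689103-92695573, minus strand, exons 3 and 4): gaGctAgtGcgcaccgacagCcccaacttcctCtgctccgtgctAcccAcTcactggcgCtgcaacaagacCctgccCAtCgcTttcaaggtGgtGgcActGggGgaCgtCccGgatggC
Runx2 (chr17:44724872-44735322, minus strand, exons 3 and 4): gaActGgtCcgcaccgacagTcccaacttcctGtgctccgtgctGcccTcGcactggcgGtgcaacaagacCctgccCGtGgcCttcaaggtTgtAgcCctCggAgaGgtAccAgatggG
Runx3 (chr4:135152967-135155311, plus strand, exons 2 and 3): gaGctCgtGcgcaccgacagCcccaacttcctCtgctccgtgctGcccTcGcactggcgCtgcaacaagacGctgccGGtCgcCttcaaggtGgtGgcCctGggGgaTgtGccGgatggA
In this stretch Runx1 and Runx3 shared 108 of 120 bases, Runx2 and Runx3 103, and Runx1 and Runx2 99.

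The start regions of the RUNX genes also carry the sequence their own products bind. The motif TGTGGTT (reverse complement AACCACA, both strands searched, no overlapping matches in these windows) was present in 5.27% of 32851 RefSeq promoter windows on GRCm38.p6, each reaching from 250 bases before to 50 bases after a start site. Of the 7 genes, 6 had a window, with 9 windows in all. The motif was found in 3 of the 9, those of the far upstream starts of Runx1, Runx2 and Runx3, and in none of the windows of Cbfb, Cbfa2t2 and Cbfa2t3 or of the downstream starts of Runx1 and Runx3. In all 3 it occurred as a tandem pair, AACCACANAACCACA (reverse complement TGTGGTTNTGTGGTT), a spacing that was chosen after the sequences were seen. The pair was present in 5 of the 32851 windows (0.0152%), and 3 of these 5 are the RUNX windows from which the spacing was read. The sites are shown as 30 bases, 5′ to 3′ on the gene's strand, with the motif copies in capitals.
Runx1 (chr16:92826025-92826054, minus strand, exon 1): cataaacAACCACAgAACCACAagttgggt
Runx2 (chr17:44814583-44814612, minus strand, exon 1): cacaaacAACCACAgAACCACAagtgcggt
Runx3 (chr4:135120503-135120532, plus strand, upstream of the gene): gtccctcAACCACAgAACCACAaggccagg
Counted with the RefSeq start site as base 1, the pair covered bases 28 to 42 in Runx1, 23 to 37 in Runx2 and -135 to -121 in Runx3. The Runx2 window held 1 further copy of the motif, starting at base -81. A match of letters is a description of these windows and not a binding site.

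Runx1 (ENSMUSG00000022952, chr16:92601466-92826149, minus strand), the nociceptor RUNX factor, was measured at nearly the same mean level in both groups. Its values were 97.7, 100.5, 109 and 137 CPM in control 1 to 4 and 111, 103, 116, 109 and 119 CPM in icKO 1 to 5. The icKO values all lay inside the control range, and control 4 was the highest library. The means were 111 ± 18.0 CPM in control (SD, n = 4) and 112 ± 6.34 CPM in icKO (SD, n = 5), and the log2 fold change was 0.011 (SE 0.09, adjusted p = 0.984). The 95% interval ran from -0.19 to 0.21 on the log2 scale, which leaves room for a change of that size. Without control 4 the log2 fold change was 0.13 (adjusted p = 0.463, with a range of 0.463 to 0.999 over the alternatives).

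Runx2 (ENSMUSG00000039153, chr17:44495987-44814797, minus strand), the osteoblast regulator, had lower values in every icKO library than in any control but did not pass the test. It was measured at 6.93, 6.78, 8.24 and 7.99 CPM in control 1 to 4. The icKO libraries gave 5.72, 5.54, 5.08, 6.29 and 5.73 CPM. The groups were separated by the gap between icKO 4 and control 2, and the 2 highest values came from control 3 and control 4. The means were 7.48 ± 0.737 CPM in control (SD, n = 4) and 5.67 ± 0.433 CPM in icKO (SD, n = 5), a log2 fold change of -0.40 (SE 0.10, 95% interval -0.62 to -0.18, adjusted p = 0.111). DESeq2 gave the same log2 fold change with an adjusted p of 0.0401, within a range of 0.0401 to 0.342 over the alternatives. These values rest on 155 to 226 counts per control library and 143 to 170 per icKO library. The antisense gene Runx2os1 shares 519 exon bases with Runx2 and held 22 counts over the 9 libraries, against 1493 for Runx2.

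Control 3, the library with the high bone cell markers, also had the highest Runx2 value. Without it the log2 fold change of Runx2 was -0.34 (adjusted p = 0.320), and the other 3 controls still lay above all 5 icKO libraries. Of 7 bone genes known as RUNX2 targets, 4 had enough counts to be tested (Ibsp, Alpl, Col10a1 and Dmp1), and 0 passed by edgeR. At an unadjusted p under 0.05, 3 of the 4 were lower, beside 6.26% of all genes. The median log2 fold change of the 4 was -0.61. DESeq2 called none of Ibsp, Alpl and Col10a1 and gave no p-value for Dmp1. Dmp1, a bone matrix protein gene, had a log2 fold change of -2.12 (adjusted p = 0.263), which was -0.18 without control 3. By limma-voom it was -1.13, and without the filter on low counts -2.11 with an adjusted p of 0.0196, within a range of 0.0196 to 0.918 over the alternatives. Alpl, alkaline phosphatase, had a log2 fold change of -0.43 (adjusted p = 0.329), which was -0.19 without control 3. Bglap (osteocalcin), Sp7 and Mmp13 had too few counts to be tested, and 4 of the 7 targets are also on the bone cell marker list. Bglap was at 4.26 CPM in control 3 and between 0 and 0.135 CPM in the other libraries. The part of bone cells in the Runx2 difference was not tested beyond leaving this library out.

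**Figure D3:**
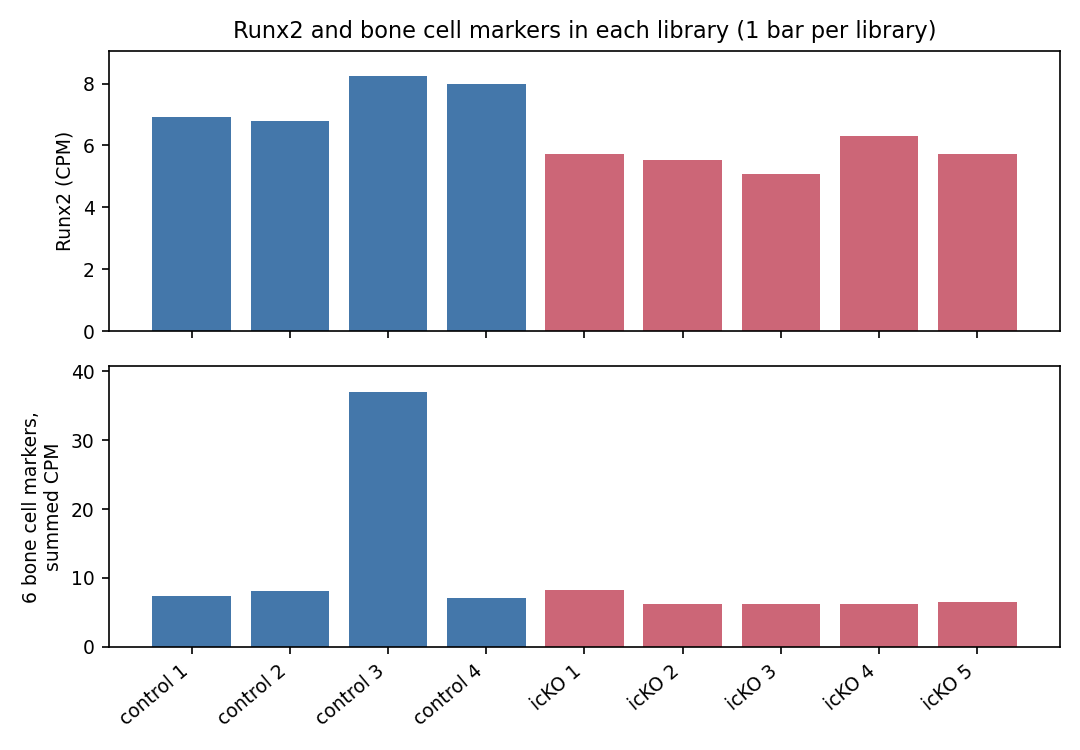
Runx2 (upper bars, CPM) and the sum of 6 bone cell markers (lower bars, CPM) in each of the 9 libraries, control in blue and icKO in red, 1 bar per library with both axes starting at 0. The marker sum is 37.0 CPM in control 3 and at most 8.24 CPM elsewhere, while Runx2 is between 6.78 and 8.24 CPM in all 4 controls and at most 6.29 CPM in icKO.

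Runx3 (ENSMUSG00000070691, chr4:135120652-135177990, plus strand), the proprioceptor RUNX factor, varied most among the 7 genes relative to its mean, in both groups. Its values were 6.34, 7.47, 9.29 and 11.4 CPM in control 1 to 4 and 5.69, 6.04, 8.57, 4.28 and 6.24 CPM in icKO 1 to 5. The groups overlapped, since icKO 3 exceeded control 1 and control 2. The means were 8.64 ± 2.23 CPM in control (SD, n = 4) and 6.16 ± 1.55 CPM in icKO (SD, n = 5), a log2 fold change of -0.48 (SE 0.20, 95% interval -0.91 to -0.05, adjusted p = 0.380). Without control 4 it was -0.32 (adjusted p = 0.584, with a range of 0.220 to 0.632 over the alternatives).

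Cbfb (ENSMUSG00000031885, chr8:105170674-105217989, plus strand), the partner subunit that all 3 RUNX proteins share, had the smallest spread relative to its level among the 7 genes in control libraries. It was measured at 286, 288, 297 and 281 CPM in control 1 to 4 and at 295, 287, 277, 299 and 281 CPM in icKO 1 to 5. The groups overlapped throughout, with means of 288 ± 6.99 CPM in control (SD, n = 4) and 288 ± 9.42 CPM in icKO (SD, n = 5). The log2 fold change was -0.00081 (SE 0.05, adjusted p = 0.997), with a 95% interval from -0.11 to 0.11.

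The ETO family genes were also close relatives. Their coding identities, counted as for the RUNX genes, were 73.9% for Runx1t1 and Cbfa2t3, 70.7% for Cbfa2t2 and Cbfa2t3, and 69.0% for Runx1t1 and Cbfa2t2. The longest identical run between any 2 of them was 29 bases, shared by Runx1t1 and Cbfa2t3. Their most alike coding stretch of 120 bases starts before the MYND zinc finger, the part of the protein that contacts NCoR corepressors, and runs into it. In this stretch 91 of 120 positions were identical in all 3. It is shown as for the RUNX genes, with capitals for the positions that are not identical in all 3.
Runx1t1 (chr4:13881211-13889701, plus strand, exons 11 and 12): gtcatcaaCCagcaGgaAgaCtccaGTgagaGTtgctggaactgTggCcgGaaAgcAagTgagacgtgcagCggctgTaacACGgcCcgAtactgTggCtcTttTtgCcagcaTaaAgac
Cbfa2t2 (chr2:154531383-154534973, plus strand, exons 10 and 11): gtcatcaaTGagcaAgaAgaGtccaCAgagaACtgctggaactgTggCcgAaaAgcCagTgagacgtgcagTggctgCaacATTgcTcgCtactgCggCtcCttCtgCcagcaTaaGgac
Cbfa2t3 (chr8:122630887-122633347, minus strand, exons 11 and 12): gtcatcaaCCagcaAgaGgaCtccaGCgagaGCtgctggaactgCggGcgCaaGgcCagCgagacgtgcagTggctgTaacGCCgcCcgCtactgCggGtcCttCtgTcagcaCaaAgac

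Runx1t1 (ENSMUSG00000006586, chr4:13743436-13893649, plus strand), the ETO gene proper, was the member that rose. It was measured at 21.1, 21.1, 22.9 and 26.2 CPM in control 1 to 4. The icKO libraries gave 30.9, 30.02, 31.4, 29.7 and 30.7 CPM. All 5 icKO libraries lay above all 4 controls and close to one another, and control 4 was the nearest control. The means were 22.8 ± 2.41 CPM in control (SD, n = 4) and 30.5 ± 0.677 CPM in icKO (SD, n = 5), and the log2 fold change of 0.42 (SE 0.07, adjusted p = 0.0128) ranked 67th by p among the 17258 genes. With each library left out in turn the log2 fold change stayed between 0.39 and 0.50, and the adjusted p between 0.00291 and 0.0455. The values rest on 508 to 628 counts per control library and 722 to 918 per icKO library, and no other annotated gene overlaps Runx1t1. The mean difference was 0.47 on the log2 scale among the 4 libraries of the high Y-linked class and 0.38 among the 5 of the low class.

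Cbfa2t2 (ENSMUSG00000038533, chr2:154436481-154539356, plus strand), also called MTGR1, was level between the groups. Its values were 21.5, 21.1, 23.1 and 22.8 CPM in control 1 to 4 and 24.5, 21.2, 22.4, 20.1 and 21.9 CPM in icKO 1 to 5. The control values all lay inside the icKO range. The means were 22.1 ± 0.984 CPM (SD, n = 4) and 22.004 ± 1.64 CPM (SD, n = 5), and the log2 fold change was -0.0071 (SE 0.07, 95% interval -0.16 to 0.14, adjusted p = 0.987).

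Cbfa2t3 (ENSMUSG00000006362, chr8:122625141-122699109, minus strand), also called MTG16 and known from blood cell precursors, was lower on average in icKO without passing the test. It was measured at 5.17, 5.39, 4.67 and 7.32 CPM in control 1 to 4 and at 4.00, 3.95, 4.00, 4.28 and 4.82 CPM in icKO 1 to 5. The groups overlapped by 1 library, icKO 5, which exceeded control 3. The means were 5.63 ± 1.16 CPM in control (SD, n = 4) and 4.21 ± 0.362 CPM in icKO (SD, n = 5), a log2 fold change of -0.41 (SE 0.14, 95% interval -0.71 to -0.11, adjusted p = 0.250). Without control 4 it was -0.27 (adjusted p = 0.392, with a range of 0.171 to 0.448 over the alternatives). Only 102 to 142 counts per library stand behind these values.

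Markers of the blood and immune cells in which RUNX and ETO genes are also active were given by their summed levels. The 8 T and NK lymphocyte markers summed to 2.42 to 5.51 CPM in control and 3.37 to 5.51 CPM in icKO libraries, with Gzmb at 0 in at least 1 library. The 5 megakaryocyte and platelet markers summed to 9.02 to 15.4 CPM and 8.95 to 15.9 CPM. Most of this was Pf4 and Itga2b, and only 2 of the 5 markers had enough counts to be tested. Ppbp was at most 0.408 CPM, and Gp9 and Gp1bb were each at 0 in at least 1 library. The 8 macrophage markers summed to 83.5 to 179 CPM and 108 to 169 CPM. The 6 mast cell markers summed to 113 to 147 CPM and 109 to 137 CPM. Most of this was Kit, at 94.9 to 127 CPM in control and 102 to 124 CPM in icKO libraries. The other mast cell markers were at most 6.31 CPM in any library and varied between libraries, with Mcpt4 at 0.623 CPM in control 1 and 6.31 CPM in control 3. The 8 markers of neutrophils and myeloid precursors summed to 19.3 to 31.7 CPM in control and 26.1 to 57.0 CPM in icKO. Of the 7 tested, 5 were higher at an unadjusted p under 0.05, beside 4.85% of all genes. DESeq2 called 4 of these higher (Camp, Ngp, S100a8 and S100a9), beside 196 of all 16609 genes, and edgeR 0. The 6 erythroid markers summed to 11.95 to 37.2 CPM and 15.9 to 50.9 CPM, and the 6 fibroblast and meningeal markers to 593 to 1241 CPM and 726 to 1627 CPM. For the other cell types of the ganglion, the sums were 618 to 945 CPM and 559 to 788 CPM over 5 satellite glia markers, 2868 to 3481 CPM and 2974 to 3500 CPM over 5 Schwann cell markers, and 39.8 to 59.2 CPM and 44.0 to 66.5 CPM over 5 endothelial markers. None of the markers in these lists passed the test by edgeR, and none outside the neutrophil and myeloid list by DESeq2. Outside that list, 1 megakaryocyte and 1 satellite glia marker were lower at an unadjusted p under 0.05, beside 6.26% of all genes. The part of these cell types in the values of the 7 genes was not tested.

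Levels of different genes were compared per kilobase of merged exons, because longer transcripts collect more counts. In control libraries Cbfb led with 82.7 ± 2.01 CPM per kilobase (SD, n = 4), followed by Runx1 with 9.23 ± 1.49. Runx1t1 came next with 2.86 ± 0.302, then Cbfa2t2 with 2.56 ± 0.114 and Runx3 with 1.73 ± 0.446. The lowest levels were those of Runx2 at 0.847 ± 0.0834 and Cbfa2t3 at 0.673 ± 0.139. Neighbours in this order did not overlap across control libraries, except Runx1t1 with Cbfa2t2 and Runx2 with Cbfa2t3. In icKO libraries the order was the same (82.7, 9.29, 3.84, 2.54, 1.23, 0.642 and 0.503 CPM per kilobase) and no neighbours overlapped. The order was also the same when the longest transcript was used as the length.

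**Figure D4:**
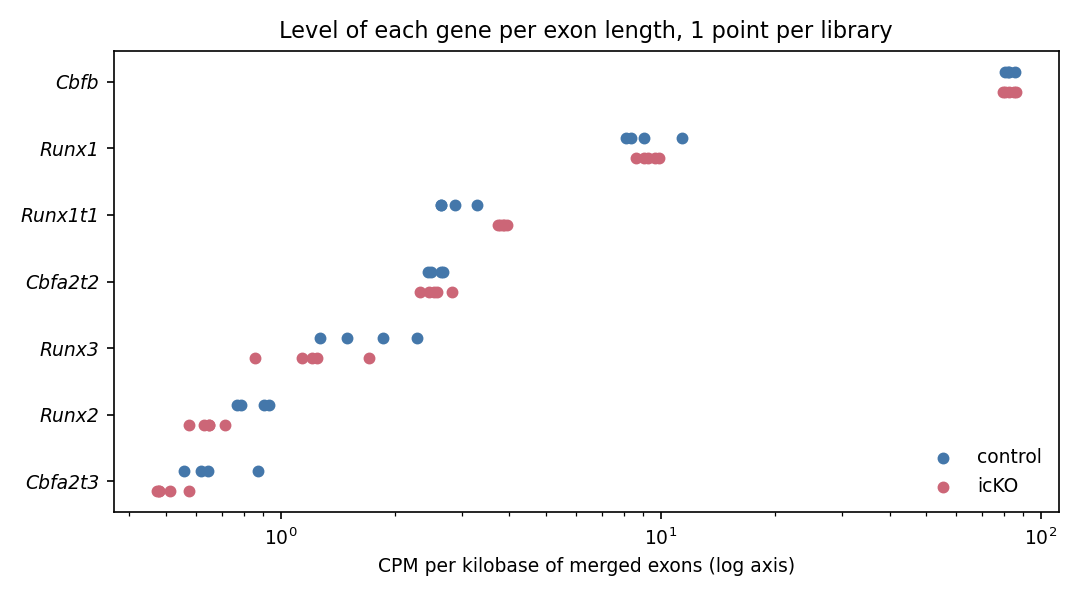
Level of each gene in CPM per kilobase of merged exons (horizontal log axis) in control (blue) and icKO (red) libraries, 1 point per library. Cbfb lies near 82.7 CPM per kilobase and Cbfa2t3 lowest, and the Runx1t1 and Cbfa2t2 points overlap in control but not in icKO.

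Within each family these levels give the share of every paralog. Runx1 held 78.3 ± 1.41% of the RUNX sum per kilobase in control (SD, n = 4, range 76.5 to 79.8%) and 83.3 ± 1.65% in icKO (SD, n = 5, range 80.9 to 85.2%), so the groups did not overlap. The Runx3 share was 14.5 ± 1.54% in control and 10.96 ± 2.26% in icKO, and the Runx2 share 7.25 ± 0.752% and 5.78 ± 0.704%. Runx1t1 held 46.9 ± 1.06% of the ETO sum in control (range 46.1 to 48.4%) and 55.8 ± 1.14% in icKO (range 54.0 to 56.9%), again with no overlap. The shares of Cbfa2t2 were 42.1 ± 2.24% and 36.9 ± 1.49%, and those of Cbfa2t3 10.99 ± 1.53% and 7.31 ± 0.683%. The groups did not overlap for the Cbfa2t3 share either (at least 9.13% in control and at most 8.26% in icKO), and they overlapped for the shares of Runx2, Runx3 and Cbfa2t2. The percentages depend on the length used, since Runx1 has 12025 bases of merged exons but a longest transcript of 5861 bases. Per kilobase of longest transcript, control means were 18.9 CPM for Runx1, 2.22 for Runx3 and 1.16 for Runx2, and shares by that length were not computed. The shares given here restate the values of the single genes and were not tested.

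The partners through which RUNX and ETO proteins act were described by 3 lists. None of 18 corepressors and deacetylases passed the test by edgeR, while DESeq2 called Zbtb16 higher and Aes lower. Under an unadjusted p of 0.05 were 1 higher and 3 lower genes, beside 4.85% and 6.26% of all genes. The median log2 fold change of the 18 was -0.0061. Among them Zbtb16, which encodes the PLZF repressor that binds ETO, was at 3.35 to 4.79 CPM in control and 5.42 to 14.9 CPM in icKO, and the log2 fold change was 1.21 (SE 0.26, adjusted p = 0.0579, with a range of 0.00023 to 0.147 over the alternatives). The groups did not overlap for Zbtb16 and, in the other direction, for Aes, beside 4.5% of all genes tested. Aes was at 484 to 524 CPM in control and 428 to 465 CPM in icKO libraries. Tle2, a Groucho corepressor gene, had a log2 fold change of -0.31 (adjusted p = 0.162). Of 11 coactivators and chromatin partners 0 passed by edgeR or DESeq2, 0 were under an unadjusted p of 0.05, and the median was 0.04, with Kat2b, an acetyltransferase gene, at 0.11 (adjusted p = 0.480) and Wwtr1, which encodes TAZ, at 0.14 (adjusted p = 0.713). Without icKO 4 the Wwtr1 value was 0.079, and without icKO 2 it was 0.22.

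Of 7 genes for E proteins and their Id inhibitors, 1 rose and 6 did not pass, with a median of 0.10. Among all genes tested 0.475% rose. An unadjusted p under 0.05 was reached by 1 higher and 0 lower genes of this list, beside 4.85% and 6.26% of all genes. The riser was Id2, an inhibitor that keeps E proteins from binding DNA, from 27.5 ± 1.71 CPM in control (SD, n = 4) to 38.5 ± 5.28 CPM in icKO (SD, n = 5). Its lowest icKO library at 31.3 CPM lay above its highest control at 29.3 CPM, and the log2 fold change was 0.49 (SE 0.10, adjusted p = 0.0333). The Id2 call was lost without icKO 1, icKO 2, icKO 4 or any 1 of the controls, with adjusted p up to 0.0951. Id1 had a log2 fold change of 0.28 (adjusted p = 0.526), which was 0.16 without control 2 and 0.19 without icKO 1. The E protein gene Tcf12 had one of 0.10 (adjusted p = 0.538).

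Genes known to need Runx1 in developing nociceptors went both ways. Of 17, 1 rose, 2 fell and 14 did not pass, beside 0.475% higher and 0.377% lower among all genes tested. An unadjusted p under 0.05 was reached by 4 higher and 4 lower genes, beside 4.85% and 6.26% of all genes. The median log2 fold change was 0.03. Fam19a4, a secreted protein gene of C-fibre mechanoreceptors, rose from 53.3 ± 4.42 to 68.5 ± 2.24 CPM (log2 fold change 0.36, adjusted p = 0.0125). Trpm8, the cold-sensing channel, fell from 47.3 ± 7.78 to 30.01 ± 1.31 CPM (-0.66, adjusted p = 0.00559). Mrgprb5, a Mas-related receptor gene, fell from 9.92 ± 3.75 to 3.74 ± 0.901 CPM (-1.40, adjusted p = 0.0194). The Mrgprb5 call was lost without icKO 1, icKO 3, icKO 4, control 2 or control 4, with adjusted p up to 0.0602. Mrgprx1 had a log2 fold change of -0.30 (adjusted p = 0.0810), and DESeq2 called it lower (adjusted p = 0.0173, within a range of 0.0173 to 0.331 over the alternatives). Mrgpra3 had one of 0.34 (adjusted p = 0.192, with a range of 0.0445 to 0.390 over the alternatives). Counts of Mrgpr genes are uncertain, since near-identical paralogs may share reads.

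Of 5 genes known to be held down by Runx1 that are reported here, 1 rose and 4 did not pass, with a median of 0.21. Among all genes tested 0.475% rose. An unadjusted p under 0.05 was reached by 2 higher and 0 lower genes of this list, beside 4.85% and 6.26% of all genes. Calcb, which encodes a CGRP peptide, rose from 164 ± 11.8 to 235 ± 15.6 CPM (log2 fold change 0.52, adjusted p = 0.00253). Tac1, the substance P gene, had a log2 fold change of 0.37 (adjusted p = 0.250, with a range of 0.0476 to 0.465 over the alternatives). Met, the hepatocyte growth factor receptor, had one of 0.21 (adjusted p = 0.785), which was 0.095 without control 2.

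Of 5 genes of Runx3-dependent proprioceptors and the trk genes RUNX3 acts on, 1 rose and 4 did not pass, with a median of -0.20. Among all genes tested 0.475% rose. An unadjusted p under 0.05 was reached by 1 higher and 1 lower gene of this list, beside 4.85% and 6.26% of all genes. Ntrk3, the TrkC receptor of proprioceptors, cells in which RUNX3 is known to repress Ntrk2, rose from 374 ± 67.2 to 527 ± 18.5 CPM (log2 fold change 0.49, adjusted p = 0.0342). The Ntrk3 call was lost without icKO 1, icKO 3, icKO 4, icKO 5, control 1 or control 3, with adjusted p up to 0.0969. Etv1, a factor of proprioceptor connectivity, had a log2 fold change of -0.39 (adjusted p = 0.0525, with a range of 0.00134 to 0.180 over the alternatives), and DESeq2 called it lower. Pvalb, a calcium buffer of proprioceptors, had one of -0.20 (adjusted p = 0.492), which was -0.084 without control 2.

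**Figure D5:**
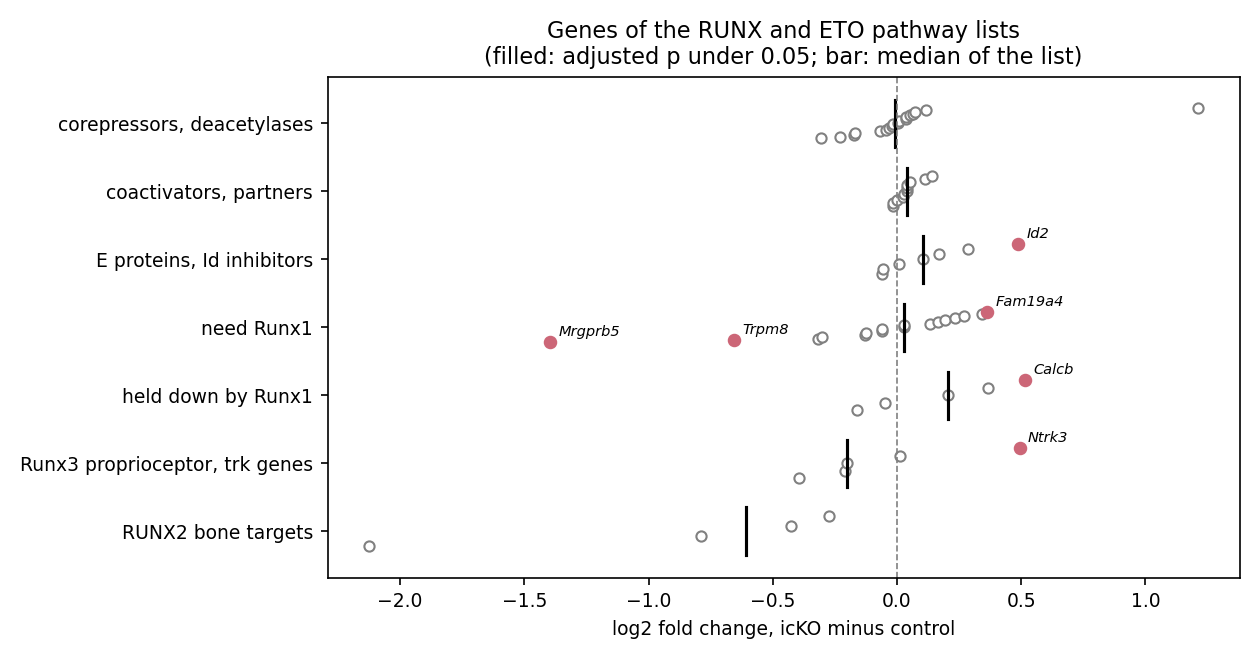
Log2 fold change, icKO minus control (horizontal axis), of each tested gene reported here from 7 RUNX and ETO pathway lists, 1 point per gene, filled and named where adjusted p was under 0.05, with the list median as a bar. Filled points occur in 4 of the 7 lists, and the list of genes that need Runx1 has them on both sides of 0.

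The genes whose pattern over the 9 libraries was most like that of each member were ranked by Pearson's r of log2 CPM among 11289 genes with a mean of at least 5 CPM. These r values are descriptions over libraries that share depth and any difference between the groups. Picking the highest of 11289 genes over 9 libraries gives high r by itself, and the values with group means removed share that choice. For Runx1t1 the closest were Camk4, a calcium and calmodulin dependent kinase gene, at 0.980, Ntrk3 at 0.974 and Isoc1 at 0.971. With the group means removed they were 0.907, 0.912 and 0.821. Camk4 (log2 fold change 0.55, adjusted p = 0.0252) and Isoc1 (0.56, adjusted p = 0.000464) passed the test on their own, as Ntrk3 did.

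For Runx2 the closest genes were Lrig1, a regulator of receptor tyrosine kinases, at 0.938, Epb41, a membrane skeleton gene, at 0.918 and Mal2, a membrane traffic gene, at 0.900. With the group means removed they were 0.826, 0.754 and 0.444. Mal2 fell in icKO (log2 fold change -0.60, adjusted p = 0.00040). Runx1 was most like Cacna1h, a T-type calcium channel gene, at 0.961, Kmt2d, a histone methyltransferase gene, at 0.957 and Pcdhb19, a protocadherin gene, at 0.950. Runx3 was most like Tmbim6 at 0.946, Radil at 0.944 and Whrn, a scaffold protein gene, at 0.941, or 0.914, 0.949 and 0.942 with the group means removed.

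Cbfb was most like Zfp160 at 0.916, Cyp1b1, a cytochrome P450 gene, at 0.911 and March7, a ubiquitin ligase gene, at 0.910. For Cbfa2t2 the closest were Sec14l5 at 0.957, Vps72, a chromatin remodelling gene, at 0.946 and Pcsk6, a proprotein convertase gene, at 0.932. For Cbfa2t3 they were Cep126 at 0.931, Ugcg, the glucosylceramide synthase gene, at 0.929 and Kntc1, a kinetochore gene, at 0.922, or 0.862, 0.841 and 0.818 with the group means removed. With any 1 library left out, r of these 21 pairs was at least 0.868, the value for Runx2 with Mal2 without control 4. The pairs were picked for high r over these same libraries, so this is not an independent check.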

How the data were processed

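Raw gene counts, as deposited by the authors in 1 table per library, were the starting point. The submitters' processing notes name mm10, featureCounts 1.5.0-p1, STAR 2.5.2a and bcl2fastq 2.20.0.422. What annotation release, strand setting and multimapper rule applied is not given in the sources used here, so reads of a gene and an antisense partner could not be separated. All 55536 identifiers were found in GENCODE M21 on GRCm38.

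Counts were filtered with filterByExpr by group (minimum count 10, minimum total 15), scaled with TMM factors and tested with edgeR 4.0.16 (quasi-likelihood, R 4.3.3). Log2 fold changes are icKO minus control, with Benjamini-Hochberg adjustment over all 17258 genes and a threshold of 0.05. The test was checked on simulated data. Alternatives used RLE factors, library size alone, other filters, DESeq2 1.42.0, limma 3.58.1 (voom), Y-linked class as a covariate, a replicate block, and each library left out. Log2 CPM for likeness used a prior count of 2.

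Named genes were the 7 members, Prdm12, the genes past the threshold in 7 pathway lists with the 2 of smallest adjusted p that did not pass, and the 3 most alike genes per member (predicted genes, Rik identifiers and pseudogenes left out). A result of 1 list gene is not reported here, and list counts and medians leave it out. The members and lists were chosen with earlier results of these data known. Replicate libraries differed by more than sampling noise (chi-square per degree of freedom 6.03 to 23.2), so each was counted once.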

Additional observations from a re-analysis of the deposited data

Results flagged for a closer look

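Dmp1, a bone matrix gene and RUNX2 target, was far higher in control 3 than in the other controls, at 9.04 CPM against 0.531 to 1.03 CPM. Of 56 groups of libraries checked over the 28 named genes it was the only one with such a gap. Chance alone gives about 1 in 20 groups past the cut-off, which over 56 is more than was found. That rate belongs to the cut-off, a gap of 0.829 of the range for 4 libraries, while the Dmp1 gap was 0.941. Other bone markers were not part of this check. Of these, Bglap was at 4.26 CPM in control 3 against at most 0.0408 CPM in the other controls, and Phex at 3.39 against at most 0.567 CPM. Whether bone tissue entered that library was not tested.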

How the results depend on the processing

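The Runx1t1 difference kept its direction under all 17 alternatives, and its call under all but the replicate block. The number of the 7 genes called was 1 in every alternative except DESeq2 (2, with Runx2) and the block (0), and 1 to 1 with single libraries left out. Genes called higher numbered 82 and lower 65 by edgeR, 172 and 221 without the filter on low counts, 196 and 229 with DESeq2, and 45 to 85 and 33 to 90 with single libraries left out. Genes called in the pathway lists numbered 6, 12 without the filter, 10 with DESeq2 and 3 to 6 with single libraries left out. The cause of these shifts was not tested.

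Whether replicate numbers pair the libraries is not stated in the labels. Deviations of same-numbered libraries correlated at 0.103, -0.175, -0.0441 and 0.170, and those of other pairs between -0.324 and 0.412. So few values cannot decide whether the numbers mark pairs. A fit with the number as a replicate block, without icKO 5, which has no partner, called 28 genes higher, 20 lower, 0 of the 7 members and 2 pathway genes, with Runx1t1 at 0.43 (adjusted p = 0.0965), Fam19a4 at 0.39 (adjusted p = 0.0655), Cbfb at 0.016 and Cbfa2t2 at 0.00056. Id2, Mrgprb5 and Ntrk3 also lost their calls there.

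Log2 fold changes close to 0 changed sign. Runx1 was at -0.0011 with the Y-linked class as a covariate and between -0.048 and 0.13 with single libraries left out. Cbfb was at 0.014 with library size alone, 0.010 without the filter and 0.0025 with the covariate, and between -0.014 and 0.025 with single libraries left out. Cbfa2t2 was at 0.0075 with library size alone, 0.0044 without the filter, and between -0.049 and 0.025 with single libraries left out. Runx2, Runx3 and Cbfa2t3, with 102 to 255 counts per library, kept a negative log2 fold change under all 17 alternatives.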
